A study of Aliger gigas with 7 samples.

Results

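Vitellogenin and the low density lipoprotein receptor family were followed in the ovaries of 7 wild adult queen conchs (Aliger gigas, formerly Strombus gigas), a large Caribbean sea snail. The members are the 9 gene titles of the deposited table that name vitellogenin, a receptor of this family or a protein that acts with one, out of 4328 titles in all. They were chosen by name, and all 9 had a value in each of the 7 animals. A title is the name of the best-matching protein that the authors attached to a conch sequence, and the sources used here do not say how this was done. A title therefore names a resemblance and not an established conch gene, and several titles may stand for 1 gene.

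The nearshore group held 3 animals from Tingler Island, where reproduction is impaired: NF1 and NF3, labelled normal females, and NM3, labelled an apparent imposex female, that is, a female bearing male sexual characters. The offshore group held 4 normal females from Pelican Shoal (OF1 to OF4), where conchs reproduce normally, and the series design makes it the reference. All 7 were mature field-caught animals with no experimental treatment, and 1 single-colour array was hybridised with the ovary RNA of each. Each group came from 1 place, so site cannot be told apart from anything else that differed between the 2 collections.

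Vitellogenin is the precursor of egg yolk, a large lipid-carrying protein that growing oocytes store. In insects, fish and birds it is taken up by receptors of the low density lipoprotein receptor family, which gather in clathrin-coated pits, carry their cargo into endosomes and return to the surface. In many bivalves and gastropods vitellogenin is made in the ovary itself, by the oocytes or the follicle cells around them. Other members of the receptor family serve in cholesterol uptake, in the clearance of proteins and in Wnt, reelin and agrin signalling.

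Values are on the authors' log scale, read as log2 from its span of 0.27 to 17.53, so that a difference of 1 is a factor of 2. The quartiles of all values lay at 2.61, 5.21 and 8.45. Array means ran from 5.83 to 5.89. NM3 lacked 45 titles, none of them a member, and the other arrays lacked 3 or fewer each. Any pair of arrays correlated at 0.91 to 0.97 across 4275 complete titles, and no array was a copy of another. The table holds no detection calls, and neither the low values above background nor any saturated bright ones can be picked out. Levels of different titles are not read as relative amounts of RNA, because each rests on its own probes, and a title's place on the scale is given only where dimness or saturation bears on it.

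Vitellogenin 2, the yolk precursor, was much lower in 1 of the 7 ovaries, that of NF1, than in the other 6. Even in NF1 the title was far from dim, at rank 279 by brightness among the titles of its array. Nearshore it measured 12.69 in NF1, 17.03 in NF3 and 16.35 in NM3, against 17.34, 17.08, 16.81 and 17.06 in offshore OF1 to OF4. NF3 therefore lay inside the offshore range, NM3 a little below it, and NF1 far below, 20.9-fold under the offshore mean. NM3 was 1.65-fold under that mean. In bulk tissue a smaller share of cells making vitellogenin and less of its RNA per cell cannot be told apart.

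Mean Vitellogenin 2 signal was 15.36 ± 2.34 nearshore (SD, n = 3) and 17.07 ± 0.21 offshore (SD, n = 4). The log2 fold change was -1.71, with a 95% confidence interval from -3.94 to 0.51 and an adjusted p of 0.310 in limma. In the two-sided exact permutation test over all 35 assignments of the animals p was 0.0571, where 0.0286 is the smallest p this design allows. Without NF1 the log2 fold change was -0.38 (limma, adjusted p = 0.530), and without NF3 it was -2.55 (limma, adjusted p = 0.151). The offshore animals spanned 0.52 and the nearshore animals 4.35. In OF1 and OF2 the title held the highest value of the whole array, so saturation could have compressed the offshore spread, which was not tested.

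NF1 lay 3.66 below the next lowest animal in Vitellogenin 2, and in no other of the 4275 complete titles did NF1 fall as far below all other animals. Only 7 of these titles placed NF1 more than 2 below every other animal, and 29 placed NM3 there. Among germ cell titles, Piwi-like 1, a partner of small RNAs that silence transposons, was also lowest in NF1, at 11.55, against 13.47 in NF3, 13.31 in NM3 and 14.19 to 15.06 offshore. Bol, Boule-like, whose fly and mouse namesakes act in meiosis, was highest in NF1, at 11.74, against 10.44 to 11.49 in the other nearshore animals and 9.45 to 10.46 offshore. The germ cell and egg envelope list held 5 titles besides Vitellogenin 2. Those that name CUB And Zona Pellucida-like Domains 1 were caught by the name of a domain, which does not make them egg envelope titles. Their mean log2 signal was 8.63, 8.38 and 8.22 in NF1, NF3 and NM3, against 8.03 to 8.38 offshore. NF1 was the highest of the 7, but 1 title weighed heavily in this rank. The title that begins Deleted In Malignant Brain Tumors 1 was at 6.81 in NF1, against 3.62 to 4.74 in the other animals. The mean without that title was not computed, so the rank of NF1 does not show a higher germ cell signal. Of the 6 titles with Vitellogenin 2 included, 0 rose and 0 fell, against 9.24% of all titles called. The search words vasa and nanos matched no title. Titles of the sperm and muscle lists also gave signal in every animal, so these markers do not by themselves establish the tissue as ovary.

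The titles whose profile over the 7 animals came nearest to that of Vitellogenin 2 all had their lowest value in NF1. Likeness was measured as the root mean square difference between 2 profiles, each centred on its own mean. It is not scaled to spread, so a title that varies little lies near many others. These differences are therefore not compared between members. Poly(A) Binding Protein Interacting Protein 2, a repressor of translation in mammals, was nearest at 0.60, with 3.78 in NF1 and 6.08 to 7.31 in the other animals. PHD Finger Protein 10, a subunit of a chromatin remodelling complex, followed at 0.63, and Cysteine Rich Transmembrane BMP Regulator 1, a membrane protein that binds bone morphogenetic proteins in vertebrates, at 0.65. The glycosyltransferase title UDP-Gal:betaGlcNAc Beta 1,3-galactosyltransferase, Polypeptide 5 differed by 0.70. CDC16 Cell Division Cycle 16 Homolog, a subunit of the anaphase-promoting complex, also differed by 0.70.

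**Figure D1:**
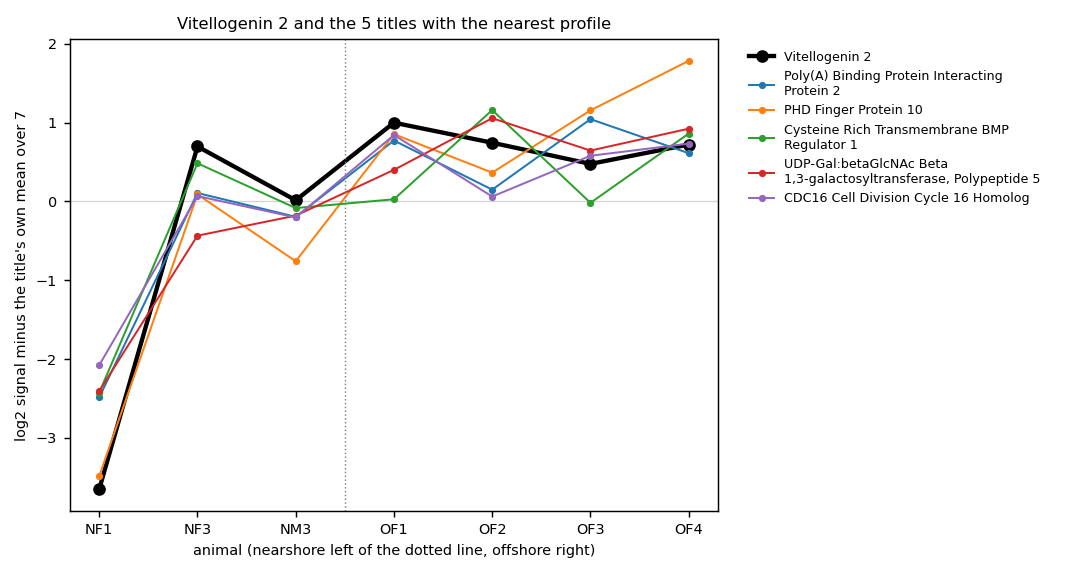
Log2 signal of Vitellogenin 2 and of the 5 titles with the nearest profile, each minus its own mean over the 7 animals, by animal with nearshore left of offshore. All 6 lines have their lowest point at NF1, and the other 6 animals lie close together for Vitellogenin 2, from 16.35 to 17.34 before centring.

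Of the 9 members, Low-density Lipoprotein Receptor Related varied most, and it varied within each site rather than between the sites. Its log2 signal reached 12.72, 9.63 and 17.16 in NF1, NF3 and NM3, against 16.43, 8.85, 15.20 and 7.87 in OF1 to OF4. NM3, OF1 and OF3 were bright, NF1 was intermediate, and NF3, OF2 and OF4 were low, so animals of both sites stood at each end. The highest animal exceeded the lowest 625-fold. The pooled SD within sites was 4.14, the sixth largest of the complete titles, whose median was 0.53.

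The nearshore mean of Low-density Lipoprotein Receptor Related was 13.17 ± 3.78 (SD, n = 3) and the offshore mean 12.09 ± 4.35 (SD, n = 4). The log2 fold change of 1.08 had an interval from -4.99 to 7.15 (limma, adjusted p = 0.846). Without NM3 it turned to -0.91 and without OF4 to -0.32, whereas without NF3 it was 2.85. The interval covers changes of several log2 units in either direction.

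Some titles for digestive enzymes and lysosomal proteases were high in the same animals. The nearest profile was that of Kallikrein B, Plasma 1, a serine protease of vertebrate blood, at a root mean square difference of 0.41. Elastase 2B, a digestive serine protease, measured 10.38 in NF1, 4.31 in NF3 and 13.24 in NM3, against 13.32, 4.69, 12.25 and 3.78 in OF1 to OF4. Amylase, Alpha 1A; Salivary, a starch-digesting enzyme, measured 9.16, 5.19 and 11.80 in NF1, NF3 and NM3, against 14.12, 5.84, 12.70 and 4.81 in OF1 to OF4. Both were high in NM3, OF1 and OF3 and low in NF3, OF2 and OF4, as the receptor title was.

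For Low-density Lipoprotein Receptor Related the 4 highest animals were NM3, OF1, OF3 and NF1. Of the 4274 other complete titles, 109 (2.55%) had these same 4 highest. They included 4 of the 22 complete digestive gland titles, namely Elastase 2B, Amylase, Alpha 1A; Salivary, Similar To Pancreatic Triglyceride Lipase and Chitinase 1. They also included 4 of the 6 protease titles of the yolk-processing type, Cathepsin F, Cathepsin H, Cathepsin L and Similar To Cathepsin L Precursor. Agrin, the ligand of LRP4 at vertebrate nerve-muscle junctions, was another, at 7.49, 3.40 and 10.56 in NF1, NF3 and NM3 and 9.41, 4.22, 8.63 and 2.92 in OF1 to OF4. None of the other 8 members had these 4 highest animals.

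In gastropods the gonad lies against the digestive gland. Over the whole list of 23 digestive gland titles the mean log2 signal was 3.71, 2.77 and 4.11 in NF1, NF3 and NM3, against 4.14, 3.22, 3.85 and 2.71 in OF1 to OF4. That mean includes the 4 titles named above for sharing the 4 highest animals, whose ranges over the 7 animals ran from 5.72 to 9.54. These 4 weigh heavily in it, so the mean is not a separate sign of the pattern. The other 18 complete titles of the list did not have the same 4 highest animals. Carboxypeptidase A1, a digestive protease, rose, with 8.65, 8.92 and 9.04 in NF1, NF3 and NM3, against 6.79 to 7.40 offshore (limma, adjusted p = 0.0173). Serine Carboxypeptidase 1, a lysosomal-type protease, fell, with 4.31 to 5.60 nearshore and 6.16 to 7.24 offshore (limma, adjusted p = 0.0408). These were the 1 rise and the 1 fall among the 23 titles, in a table in which 9.24% of all titles were called. Beta-amylase, Secreted Chitinase and both peptidase titles ending in Trypsin lay at 2.53 or lower in all animals. Among complete titles with a range over 2, 4 of 11 in the list had the same 4 highest animals, against 4.46% of all other titles. Chymotrypsin-like also varied widely but did not share them. It measured 4.98, 2.98 and 1.27 in NF1, NF3 and NM3, against 3.66, 5.67, 0.51 and 1.28 in OF1 to OF4. The part of digestive tissue in the signal of Low-density Lipoprotein Receptor Related was not tested.

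A pair of further titles was looked up after the values had been seen, because their names resemble the family's. Low Density Lipoprotein-related Protein 1 measured 11.27, 6.68 and 14.78 in NF1, NF3 and NM3, against 15.09, 7.02, 13.53 and 5.41 in OF1 to OF4. Its pooled SD within sites of 4.50 was the second largest of the complete titles. Low Density Lipoprotein-related Protein 2 measured 8.04, 5.27 and 11.78 in NF1, NF3 and NM3, against 8.98, 5.56, 7.92 and 4.48 in OF1 to OF4. Whether these titles and Low-density Lipoprotein Receptor Related stand for 1 conch gene or several is not known.

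**Figure D2:**
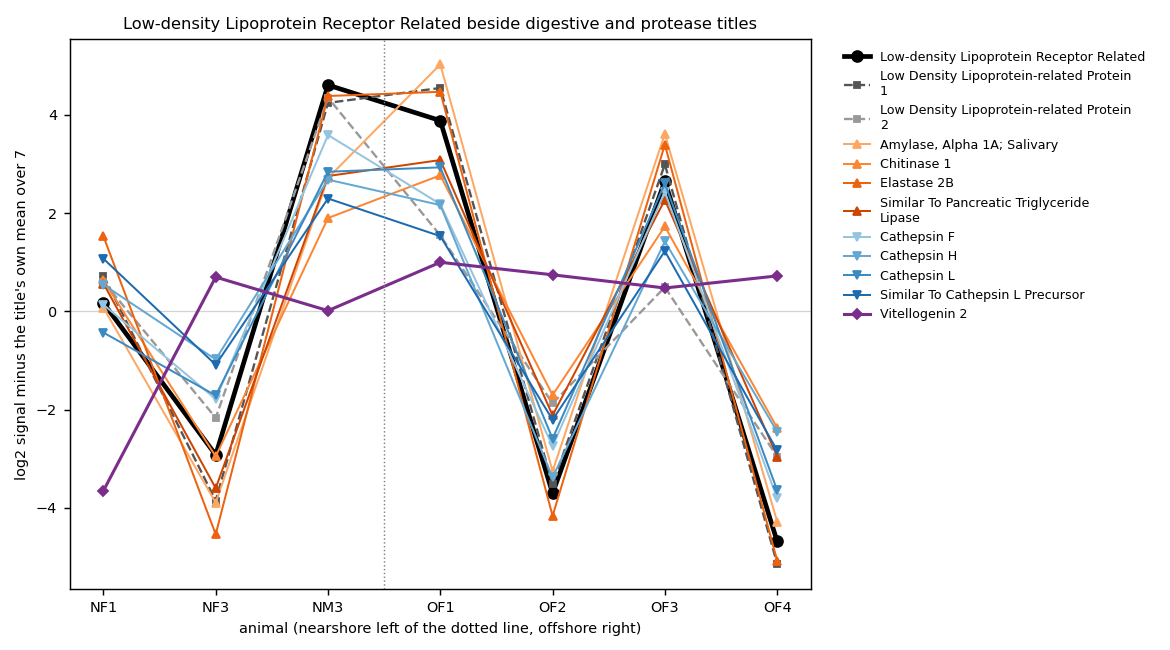
Log2 signal of Low-density Lipoprotein Receptor Related, 2 similarly named titles, 4 digestive enzyme titles, 4 cathepsin titles and Vitellogenin 2, each minus its own mean over the 7 animals, by animal with nearshore left of offshore. The digestive and cathepsin titles drawn are only those with the same 4 highest animals as the receptor title, so their likeness follows from that choice. The other titles of both lists are not drawn. All lines but Vitellogenin 2 are high in NM3, OF1 and OF3 and low in NF3, OF2 and OF4, whereas Vitellogenin 2 is low in NF1 alone.

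The smallest p of the members in limma, 0.0580 before adjustment, belonged to a title that resembles Low-density Lipoprotein Receptor-related Protein 1B (LRP1B), a giant endocytic receptor of mammals, in its precursor form. Its log2 signal was 10.10, 10.13 and 11.01 in NF1, NF3 and NM3, against 10.38, 7.89, 9.52 and 8.13 in OF1 to OF4. The nearshore animals lay close together, and OF1 reached into their range while the other offshore animals stayed below it. Means were 10.41 ± 0.52 nearshore (SD, n = 3) and 8.98 ± 1.18 offshore (SD, n = 4), a log2 fold change of 1.43 with an interval from -0.06 to 2.92 (limma, adjusted p = 0.208). Without 1 animal the log2 fold change ran from 1.06 without OF2 (limma, adjusted p = 0.358) to 1.90 without OF1 (limma, adjusted p = 0.0827). The exact permutation p was 0.171. Its nearest profile was Similar To Glutathione S-Transferase, a detoxification enzyme title, at 0.26.

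The title that resembles Low Density Lipoprotein Receptor-related Protein 8 (LRP8), which binds reelin in the vertebrate brain, had a lower mean nearshore. Its values were 4.20, 4.62 and 3.72 in NF1, NF3 and NM3, against 6.20, 5.04, 4.62 and 4.19 in OF1 to OF4. OF1 was high and the remaining animals overlapped. The log2 fold change was -0.83, with an interval from -1.99 to 0.33 (limma, adjusted p = 0.346), and ran from -1.11 without OF4 to -0.43 without OF1. Similar To Neurofibromin was nearest in profile, at 0.23.

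Low Density Lipoprotein Receptor, named after the receptor that takes up cholesterol-rich particles, was near the bottom of the scale. It had 2.31, 2.03 and 1.46 in NF1, NF3 and NM3, against 2.17, 1.54 and 2.14 in OF1 to OF3 and 2.0 in OF4. Every value lay under the lower quartile of the table, 2.61, and the sites overlapped throughout. The log2 fold change was -0.03, with an interval from -0.72 to 0.67 (limma, adjusted p = 0.978). NADH Dehydrogenase 1 Beta Subcomplex 3, a respiratory chain subunit, had the nearest profile, at 0.12.

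Receptors of agrin and Wnt signalling overlapped between the sites. Low Density Lipoprotein Receptor-related Protein 4, the agrin receptor of vertebrate muscle, measured 7.98, 8.40 and 7.22 in NF1, NF3 and NM3, against 8.15, 8.15, 8.01 and 8.59 in OF1 to OF4. NM3 was lowest, 2.01-fold under the offshore mean, and the other 6 animals lay between 7.98 and 8.59. Its log2 fold change was -0.36, with an interval from -1.14 to 0.41 (limma, adjusted p = 0.549), and ran from -0.63 without NF3 to -0.04 without NM3. Similar To DNA-directed RNA Polymerase I 16 KDa Polypeptide was nearest in profile, at 0.08.

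Low Density Lipoprotein Receptor-related Protein 6, a Wnt co-receptor, measured 1.73, 2.72 and 3.43 in NF1, NF3 and NM3, against 3.18, 2.67, 2.93 and 2.76 in OF1 to OF4. The extremes were both nearshore, with NF1 lowest and NM3 highest of the 7. Its log2 fold change was -0.26, with an interval from -1.21 to 0.69 (limma, adjusted p = 0.748), and ran from -0.66 without NM3 to 0.19 without NF1. HemK Methyltransferase Family Member 1 was nearest in profile, at 0.20.

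Low Density Lipoprotein Receptor Adaptor Protein 1 links the tail of the receptor to clathrin in mammals, so that the loaded receptor is internalised. Its log2 signal was 3.70, 5.53 and 4.03 in NF1, NF3 and NM3, against 5.41, 4.91, 5.39 and 5.49 in OF1 to OF4. NF1 and NM3 were below every offshore animal, by factors of 3.04 and 2.42 relative to the offshore mean. NF3 was above all 4, though barely above OF4. Means were 4.42 ± 0.98 nearshore (SD, n = 3) and 5.30 ± 0.26 offshore (SD, n = 4), a log2 fold change of -0.88 with an interval from -1.94 to 0.17 (limma, adjusted p = 0.269). Without NF3 the log2 fold change was -1.44 and the adjusted p in limma 0.0481, the single case in which a member passed. Without NF1 it was -0.52 (limma, adjusted p = 0.564). Proteasome Beta 9 Subunit was nearest in profile, at 0.20.

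Low Density Lipoprotein Receptor Class A Domain Containing 3, a membrane protein with the ligand-binding repeats of the family, measured 4.30, 3.98 and 2.96 in NF1, NF3 and NM3, against 3.97, 2.90, 3.16 and 3.31 in OF1 to OF4. NF1 was highest, NF3 and OF1 were nearly equal below it, and NM3 lay among the offshore animals. The log2 fold change was 0.41, with an interval from -0.54 to 1.36 (limma, adjusted p = 0.584), and ran from 0.13 without NF1 to 0.80 without NM3. Solute Carrier Family 6, Member 5 was nearest in profile, at 0.12.

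**Figure D3:**
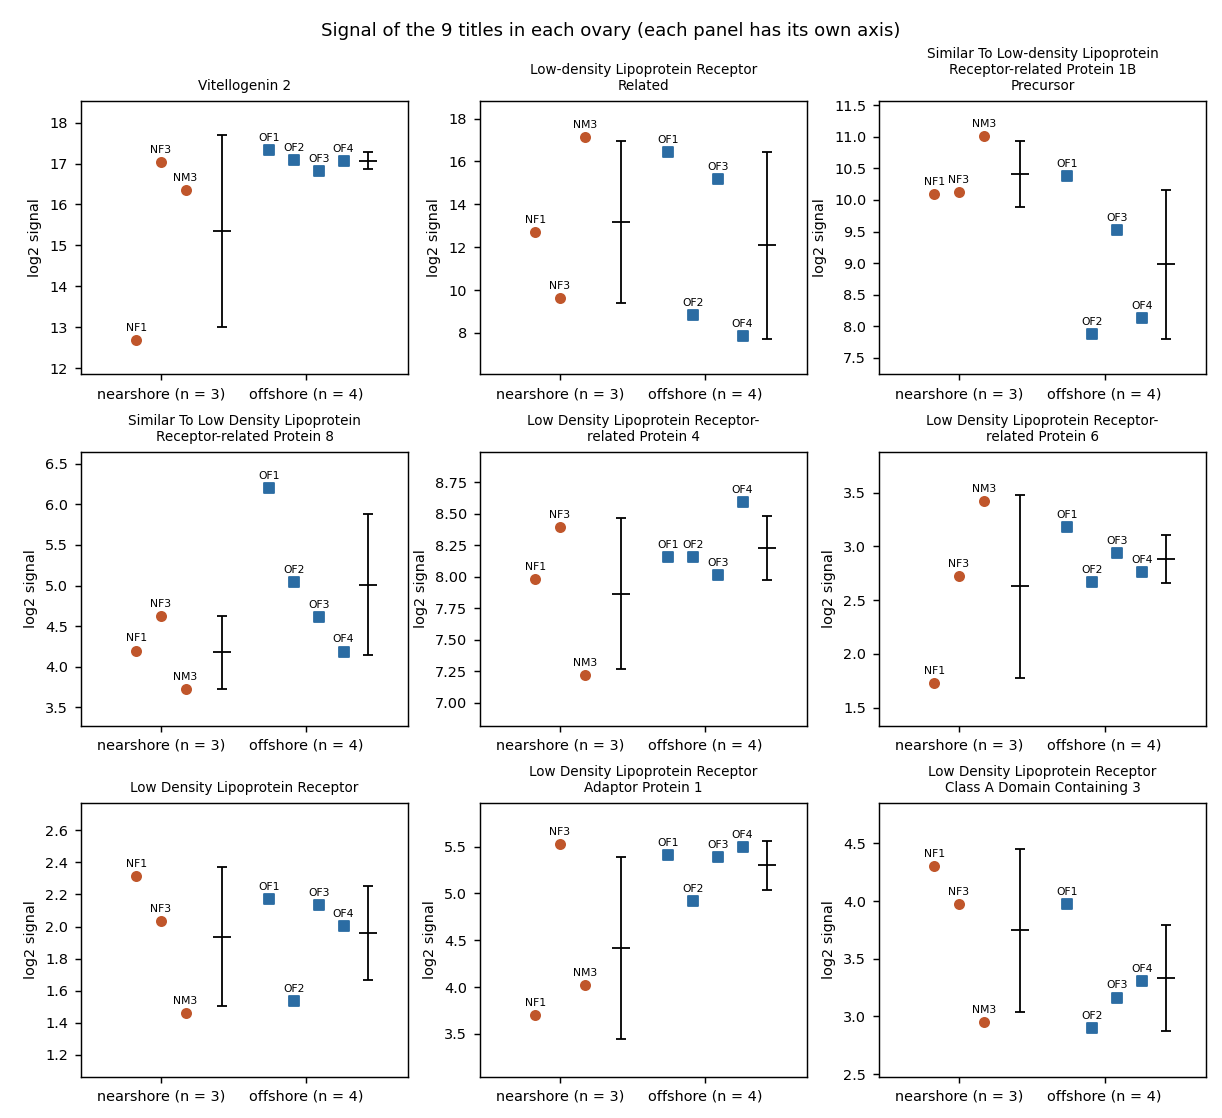
Log2 signal of each of the 9 titles in each ovary, nearshore circles left of offshore squares, with the mean and SD of each site as a black bar and a separate vertical axis per panel. NF1 stands 3.66 below every other animal in Vitellogenin 2, Low-density Lipoprotein Receptor Related spans 7.87 to 17.16 across both sites, and the sites overlap in all 9 panels.

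Between the sites, 0 of the 9 members passed an adjusted p of 0.05 in limma, in a table in which 400 of 4328 titles (9.24%) did. At an unadjusted p under 0.05 in limma it was 0 of 9, against 26.1% of all titles. The exact permutation test gave an unadjusted p under 0.05 for 0 of 9, against 17.9% of the complete titles, and the ordinary pooled-variance test gave an adjusted p under 0.05 for 0 of 9, against 3.3% of all titles. The sites overlapped in all 9, whereas 24.2% of the complete titles had no overlap. Adjusted p-values of the members ran from 0.208 to 0.978. The nearshore mean was higher in 3 members and lower in 6, and the median log2 fold change was -0.26, against -0.01 over all titles. Since the intervals are wide, these counts do not show that the members were equal at the sites.

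**Figure D4:**
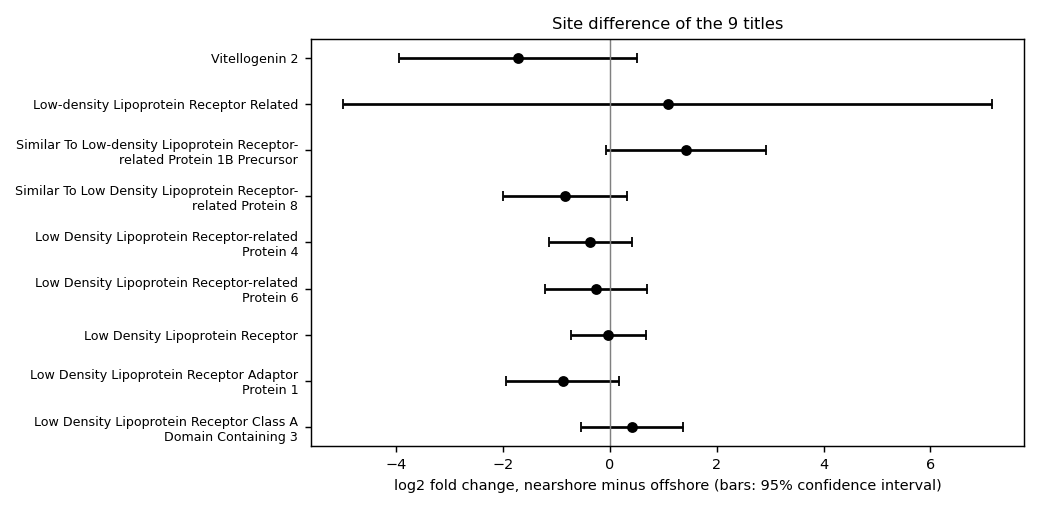
Log2 fold change of each of the 9 titles, nearshore minus offshore, with bars for the 95% confidence interval from limma. Every interval includes 0; the interval of Low-density Lipoprotein Receptor Related, from -4.99 to 7.15, is the widest.

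Each nearshore animal was set against the range of the 4 offshore animals. NM3 lay outside it in 8 of 9 members, against 61.2% of all complete titles. It was above the range in Low-density Lipoprotein Receptor Related, the LRP1B-like title and Low Density Lipoprotein Receptor-related Protein 6, and below it in 5 others. NF1 lay outside in 6 of 9, against 59.6% of titles, below in 4 and above in 2. Of these 6 members 5 were outside in NM3 too, but not always on the same side. Low Density Lipoprotein Receptor-related Protein 6 was below in NF1 and above in NM3. Low Density Lipoprotein Receptor was above in NF1 and below in NM3. The share of all titles outside in both animals was not computed. NF3 lay outside in 2 of 9, against 55.7% of titles, and above in both. Each was nearly a tie. Low Density Lipoprotein Receptor Adaptor Protein 1 was at 5.53 in NF3 against 5.49 in OF4. Low Density Lipoprotein Receptor Class A Domain Containing 3 was at 3.977 in NF3 against 3.973 in OF1. In NF1 the adaptor was below the range and the class A domain title above it. NF1 and NM3, of which only NM3 was labelled imposex, were both below the offshore range in Vitellogenin 2, Low Density Lipoprotein Receptor-related Protein 4 and Low Density Lipoprotein Receptor Adaptor Protein 1. In Low Density Lipoprotein Receptor-related Protein 4 this was nearly a tie for NF1, at 7.98 against 8.01 in OF3. The share of all titles below the range in both animals was not computed either.

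Related pathways were described with 4 lists of titles. Their counts of rises and falls are to be read beside the 9.24% of all titles called in limma. Among 7 other lipoprotein and yolk-related titles, 1 fell and 1 rose nearshore, and the list's median log2 fold change was 0.31. High Density Lipoprotein-binding Protein, or vigilin, an RNA-binding protein that in Xenopus binds vitellogenin mRNA, had 2.26, 3.37 and 2.45 in NF1, NF3 and NM3, against 5.20, 5.63, 4.12 and 4.38 in OF1 to OF4. The sites did not overlap, and in limma it fell by 2.14 log2 units (adjusted p = 0.0353, SE 0.46). The call was kept in 1 of the 7 fits without 1 animal, that without NF3, and also ended with array weights (adjusted p = 0.0588). Its nearshore values in NF1 and NM3 lay under the lower quartile of the table.

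Oxidized Low Density Lipoprotein Receptor 1, a lectin-like scavenger receptor of vertebrates outside the low density lipoprotein receptor family, rose nearshore. It measured 9.89, 9.18 and 9.13 in NF1, NF3 and NM3, against 7.97, 8.36, 7.19 and 7.68 in OF1 to OF4. The sites did not overlap, and the log2 fold change was 1.60 (SE 0.35, adjusted p = 0.0371 in limma). The call was kept in 1 of the 7 fits without 1 animal, that without OF2. Apolipoprotein Eb, Cubilin, Ferritin, Similar To Ferritin Heavy Chain and the sortilin-related receptor title did not pass, with log2 fold changes from -0.42 to 0.46. Cubilin, an endocytic receptor that works with a large member of the family in mammals, stayed between 1.14 and 1.87 in all animals, near the bottom of the scale.

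Of 21 titles of clathrin-coated vesicles and endosomes, 1 fell and 0 rose, with a median log2 fold change of -0.33. Sorting Nexin Associated Golgi Protein 1, a sorting nexin by its title, had 4.36, 4.98 and 5.64 in NF1, NF3 and NM3, against 6.84, 6.59, 6.63 and 6.13 in OF1 to OF4. In limma it fell by 1.55 log2 units (adjusted p = 0.0406, SE 0.35), and the call was kept only without NM3 among the fits that left out 1 animal. Clathrin, Light Polypeptide, a subunit of the coat, was bright in all animals, with 10.81 to 11.53 nearshore and 10.36 to 10.82 offshore (log2 fold change 0.51, adjusted p = 0.277 in limma). At an unadjusted p under 0.05 in limma there were 7 of the 21, 2 of them higher nearshore, a share near the 26.1% of all titles.

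Of 6 protease titles of the kind that cleave yolk or food proteins in lysosomes, 0 rose and 0 fell in limma, also at an unadjusted p under 0.05. The lowest p was that of Similar To Cathepsin L, A, with a log2 fold change of 1.67 (adjusted p = 0.226 in limma) and values of 1.87, 4.73 and 3.14 in NF1, NF3 and NM3, against 2.86, 0.82, 1.92 and 0.72 in OF1 to OF4. Similar To Cathepsin L Precursor and Cathepsin H had log2 fold changes of 1.33 and 1.31 and ranges of 5.13 and 6.06 over the 7 animals. Similar To Cathepsin L Precursor ranked all 7 animals exactly as Low-density Lipoprotein Receptor Related did, an order shared by 13 of the 4274 other titles.

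Of 10 titles of the Wnt pathway and its neighbours, partners of LRP4 and LRP6, 1 rose and 0 fell, with a median log2 fold change of 0.19. Similar To Catenin, Delta 1, which binds cadherins at cell junctions, measured 5.31, 6.12 and 4.18 in NF1, NF3 and NM3, against 3.38, 3.04, 3.49 and 3.28 in OF1 to OF4. The sites did not overlap, and it rose by 1.91 (SE 0.44, adjusted p = 0.0419 in limma). That call was kept only without NM3 among the fits that left out 1 animal. Similar To Catenin, Beta 1, 88kDa, the Wnt effector, did not pass (log2 fold change -0.65, adjusted p = 0.425 in limma).

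Other tissue markers were read beside these results. In the muscle list 3 of 13 titles rose and 0 fell, in a table in which 9.24% of all titles were called. Of these 3, Myosin, Heavy Polypeptide 9, Non-muscle is by its own name not a muscle title. The list's mean log2 signal, with that title included, was 5.66 to 6.14 nearshore and 4.80 to 5.42 offshore, without overlap. The 29 sperm and testis titles had mean signals of 4.70 to 5.07 nearshore, lowest in the imposex animal NM3, and of 4.99 to 5.29 offshore. Of them 2 rose and 3 fell. That list includes titles caught by the word alone, such as Spermine Oxidase, so its mean is not a measure of testis tissue. The part of muscle or testis-like tissue in the values of the members was not tested.

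**Figure D5:**
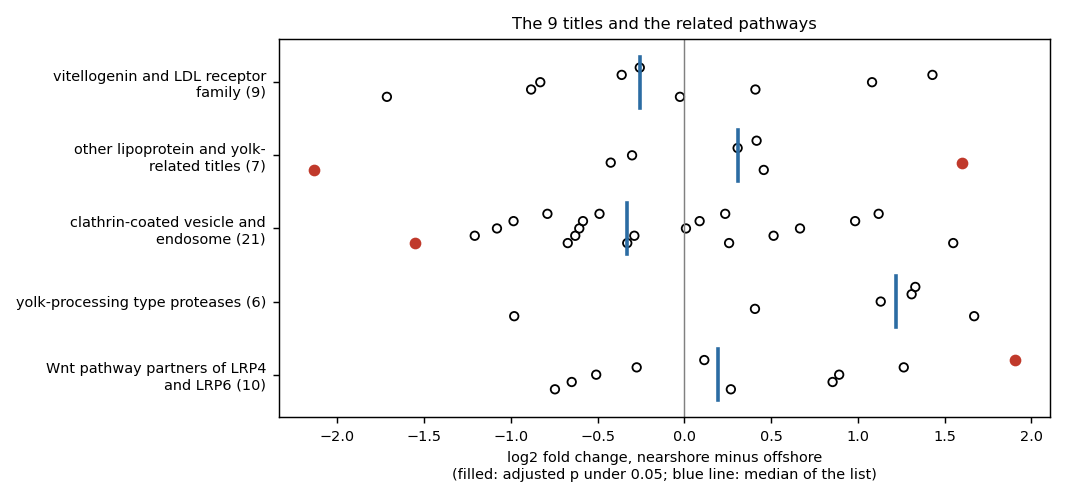
Log2 fold changes, nearshore minus offshore, of the 9 members and of the titles in the 4 related lists, 1 point per title, with filled points for an adjusted p under 0.05 in limma and a blue line at each list's median. The 4 filled points are High Density Lipoprotein-binding Protein, Oxidized Low Density Lipoprotein Receptor 1, Sorting Nexin Associated Golgi Protein 1 and Similar To Catenin, Delta 1, and 0 of the 9 members are filled.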

How the data were processed

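Total RNA of each ovary was labelled with Cy3 (1 ug per animal, per the labels' protocols) and, per the submitters' processing notes, Agilent Feature Extraction gave the signals. The deposited table holds 1 log-scale value per title and array, read as log2 from its range. The sources used here state neither its normalization nor its background treatment nor how probes were condensed, and its nearly equal array means were taken to show that the authors had normalized it. The number of arrays limits the precision. Probe sequences were not used here.

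All 4328 titles were fitted in R 4.3.3 with limma 3.58.1 (lmFit, eBayes; site as the term; two-sided), and p-values were adjusted over all of them with the method of Benjamini and Hochberg. Rose and fell mean an adjusted p under 0.05. No title was filtered out, and the 53 titles lacking a value were tested on those present. SE and intervals are moderated. The fit was tested on simulated data. Exact permutation tests used all 35 assignments of 7 animals to 3 and 4.

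The members, the 4 related lists and the 4 marker lists (search patterns on titles) were chosen with earlier results of these data known. All members were named, with the 5 nearest profiles of Vitellogenin 2 and the nearest of each other member, and from each related list up to 6 called titles or, without calls, the 3 with the smallest p. The patterns also caught strays, which were kept in the counts and means. Examples are Synaptojanin 2 Binding Protein in the vesicle list and Catenin, Beta Like 1 in the Wnt list. In the marker lists they include Myosin, Heavy Polypeptide 9, Non-muscle (muscle) and Spermine Oxidase (sperm and testis). The digestive gland list likewise caught Carbamoyl-phosphate Synthetase 2, Aspartate Transcarbamylase, And Dihydroorotase. Any other title was chosen after its values were seen. Alternatives were other normalizations (quantile, median centring, cyclic loess), leaving out the 25% dimmest titles, array weights, other variance priors, an unmoderated test, a replicate block, other thresholds and leaving out each animal. The labels give no slide, extraction or scan batch.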

Additional observations from a re-analysis of the deposited data

Results flagged for a closer look

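In 2 of 55 titles checked (the members, the related lists and the 2 similarly named titles), 1 of the 4 offshore animals stood apart from the other offshore animals by more of the group's range than Dixon's 95% limit allows, which chance gives in about 1 of 20 groups. Similar To Legumain-like Protease Precursor, a lysosomal protease title, was at 6.03 in OF4, against 0.89 to 1.57 in the other offshore animals, and it was at 0.96 to 1.66 nearshore. Clathrin Binding was at 1.11 in OF2, against 1.01 to 1.02 in the other offshore animals, a difference of little size at the bottom of the scale. None of the 9 members was among these titles.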

How the results depend on the processing

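Each of the 9 members was refitted under up to 16 alternatives. Of 143 such values 132 kept their direction and their side of the threshold, 10 changed sign and 1 newly passed. The count of members called was 0 in every alternative except without NF3, where it was 1 (range 0 to 1 over the fits without 1 animal). The sign changes were those of Low-density Lipoprotein Receptor Related with the replicate block (-2.62), without NM3 (-0.91) and without OF4 (-0.32), of Low Density Lipoprotein Receptor-related Protein 6 without NF1 (0.19), and of Low Density Lipoprotein Receptor after quantile normalization (0.16), after cyclic loess (0.0199), with array weights (0.00416), without NM3 (0.21), without OF3 (0.03) and without OF1 (0.04). With the replicate block, Similar To Cathepsin L Precursor (-0.55) and Cathepsin H (-1.02) also changed sign. In that block OF2 and OF4 share their number with no other animal, so they do not enter its site difference. It rests on NF1, NF3, NM3, OF1 and OF3 alone. Causes beyond this were not tested. Without 1 animal, these titles ranged from -0.91 to 2.85 (Low-density Lipoprotein Receptor Related), from -0.66 to 0.19 (Low Density Lipoprotein Receptor-related Protein 6) and from -0.21 to 0.21 (Low Density Lipoprotein Receptor).

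Of all titles, 400 changed, against 143 in the ordinary pooled-variance test, 659 at an adjusted p under 0.10, 0 at one under 0.01, 0 with the replicate block, and 34 to 302 without 1 animal (34 without OF4, 42 without OF3). The single rises and falls of the related lists (1 rise and 1 fall among lipoprotein titles, 1 fall among vesicle titles, 1 rise among Wnt titles) each became 0 in the ordinary test, at an adjusted p under 0.01 and with the replicate block, and 0 to 1 without 1 animal. The fall among lipoprotein titles also became 0 with array weights, and those of the vesicle and Wnt lists became 0 with a mean-dependent prior. At an adjusted p under 0.10 the vesicle list had 1 rise, and without NF3 the Wnt list had 1 fall. The replicate block used the number in the animal codes, which the labels do not say marks anything shared. With OF2 and OF4 out of its site difference, its counts of 0 rest on fewer animals than the main fit. Deviations from the site means of same-numbered animals correlated at 0.01 (NF1 and OF1), -0.21 (NF3 and OF3) and 0.29 (NM3 and OF3), so the numbers were not read as pairs.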
